A study of Homo sapiens with 12 samples.

Results

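The baseline described here is the transcriptome of polarized mammary acini: the 4 arrays titled vehicle, chosen by that title alone, of 12 arrays in all. Acini are hollow spheres of epithelial cells, grown here from the S1 subline of HMT-3522, a human breast epithelial cell line that is not neoplastic, at passage 55 to 60. All 12 cultures were plated at 35000 cells per cm2 on Matrigel, a laminin-rich basement membrane extract, and kept for 10 days in H14 medium with 5% Matrigel. H14 holds insulin at 250 ng/ml, transferrin at 10 µg/ml, hydrocortisone at 1.4 µM, prolactin at 5 µg/ml, selenite and estradiol. EGF was present at 10 ng/ml for 8 days and then left out for 48 hours, and 80% to 90% of the structures are stated to be well formed by then. The vehicle cultures are labelled polarized, and the labels do not name the vehicle. The other 4 and 4 arrays come from cultures given 10 µM AGA (18-alpha-glycyrrhetinic acid, a gap junction inhibitor) or 10 µM Aza (5-aza-2'-deoxycytidine, a DNA methyltransferase inhibitor) from plating for 10 days, both labelled not polarized. S1 is a single line kept in a defined medium, so the replicates, called biological in the series design, show the spread between cultures of this line and not between people.

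A mammary acinus has a luminal face, where tight junctions and apical proteins sit, and a basal face, where integrins hold the cells to laminin and collagen IV. In the gland, an inner layer of luminal cells carries simple keratins and can make milk, and an outer basal layer carries stratified keratins, contractile proteins and laminin receptors. Cultured mammary lines can hold markers of both layers.

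Total RNA was measured on Affymetrix oligonucleotide arrays, in which a probe set is a group of short probes for 1 transcript and its intensity is its brightness. Deposited intensities below 1 were set to 1, log2 was taken, and all 12 arrays were quantile normalized. A level is the mean of these log2 values over the 4 vehicle arrays, with the SD between the arrays. Brightness depends on probe affinity as well as on RNA, so each gene is placed by the percentage of the 22215 probe sets that lie below it. It is not a transcript number. The brightest of a gene's own probe sets stands for the gene. With no detection calls used here, a stand-in for dim signal came from 49 probe sets of olfactory receptor genes, which are nasal receptors not known from mammary epithelium. Their levels ran from 0.02 to 4.11, and their 95th percentile, 3.99 (an intensity of 15.9), is called the olfactory receptor level below.

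Of the 22215 probe sets, 12799 (57.6%) lay above that level, 11543 of them on each of the 4 arrays. Of 11963 genes with a probe set of their own, 7413 (62.0%) lay above it. The median intensity of the vehicle arrays ran from 29.6 to 35.9, within the range of 23.3 to 35.9 over all 12. The 3′ to 5′ signal ratio of the GAPDH control probe sets, a sign of RNA integrity, ran from 1.15 to 1.30 on the vehicle arrays, and that of ACTB from 2.39 to 3.48, highest on vehicle 2. Vehicle 4 stood apart: it was the array farthest from the mean for 42.8% of the probe sets above the level, against 16.6% to 20.6% for each of the others. Pearson's correlation across those probe sets, a description only since the arrays share every probe set and its affinity, was 0.964 to 0.967 among vehicle 1, 2 and 3 and 0.918 to 0.937 with vehicle 4. Results that rest on vehicle 4 are given with and without it. Part of the spread went with the replicate number in all 3 groups. For this, 12680 probe sets were used whose mean over all 12 arrays lay above the level. Their deviations from the group means correlated at 0.291 to 0.709 between same-numbered arrays of different groups. Between arrays of different number the range was -0.454 to 0.158. Deviations within a group cancel out, so positive correlations for same numbers force some negative ones for different numbers. The cause of the spread that went with the replicate number was not tested.

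The brightest genes were those of the translation machinery. TPT1, a translationally controlled growth protein, had levels of 13.29, 13.35, 13.32 and 13.30 on vehicle 1 to 4. EEF1A1, the factor that brings aminoacyl-tRNA to the ribosome, had levels of 13.14, 13.15, 13.11 and 13.27. Of the 25 genes with the highest levels, 20 encode ribosomal proteins, with RPL37A highest among them at 13.23 ± 0.06 (SD, n = 4). NACA, a chaperone of nascent chains, and EIF1, an initiation factor, were also among the 25, at 12.85 ± 0.05 and 12.81 ± 0.07. All 33 ribosomal protein genes of the list lay above the olfactory receptor level and 32 of them were in the top 1% of probe sets. The exception was RPLP2, an acidic stalk protein, at 4.90 ± 0.34, which has 1 other probe set, at 3.71. HUWE1, a ubiquitin ligase, had the second highest level, 13.23, from a probe set whose identifier carries the suffix x for possible cross-hybridization. Its other probe sets had levels of 8.39, 3.30 and 2.30, so its probe sets disagree and the first value is uncertain.

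The ribosomal genes were also among the steadiest. Over the 55 genes named RPS or RPL that lay above the level, the median SD was 0.0932, against 0.302 over all probe sets above it. Quantile normalization gives each array the same set of values and so limits the spread of its brightest probe sets. In the deposited values without normalization the corresponding medians were 0.178 and 0.364, and after median centring 0.158 and 0.309.

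Promoter sequences are shown for 6 genes that span these levels, from the brightest ribosomal gene to a milk protein gene below the olfactory receptor level: RPL37A (chr2:216498724-216498843, plus strand), the laminin chain LAMB1 (chr7:108003162-108003281, minus strand), the keratins KRT5 (chr12:52520395-52520514, minus strand), KRT8 (chr12:52926470-52926589, minus strand) and KRT10 (chr17:40822615-40822734, minus strand), and the casein CSN2 (chr4:69965729-69965848, minus strand). Each sequence is the 120 bases before the gene's start in RefSeq on assembly GRCh38.p14, written 5′ to 3′ on the gene's strand, with each CpG dinucleotide in capitals.
RPL37A: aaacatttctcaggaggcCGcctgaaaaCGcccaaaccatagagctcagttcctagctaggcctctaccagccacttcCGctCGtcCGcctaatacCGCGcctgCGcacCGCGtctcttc
LAMB1: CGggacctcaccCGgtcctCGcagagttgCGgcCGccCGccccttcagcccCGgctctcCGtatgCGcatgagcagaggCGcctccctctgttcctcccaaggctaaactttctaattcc
KRT5: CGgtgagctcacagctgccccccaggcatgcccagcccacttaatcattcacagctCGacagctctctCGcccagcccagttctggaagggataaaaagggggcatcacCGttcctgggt
KRT8: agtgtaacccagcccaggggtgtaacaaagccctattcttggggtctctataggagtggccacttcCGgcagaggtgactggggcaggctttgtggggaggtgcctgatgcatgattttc
KRT10: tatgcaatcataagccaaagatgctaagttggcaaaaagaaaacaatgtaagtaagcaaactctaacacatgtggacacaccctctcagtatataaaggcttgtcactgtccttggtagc
CSN2: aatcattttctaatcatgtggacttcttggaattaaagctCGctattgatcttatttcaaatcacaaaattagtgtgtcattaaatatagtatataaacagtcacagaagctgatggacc
RPL37A and LAMB1 each hold 10 CpG in the stretch shown, KRT5 holds 4, KRT8 and CSN2 1 each, and KRT10 0. The letters TATAAA, searched on the gene's strand from 45 to 11 bases before the start, are in KRT10 and CSN2, which lie at opposite ends of the levels, and not in the other 4.

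Promoter composition was set beside level for protein-coding genes outside chromosome 8, of which 9438 of 11139 measured (84.7%) had a RefSeq entry; 2740 of these list several starts, and the first was taken. Above the median level of these genes, the observed-to-expected CpG ratio over 250 bases before the start had a median of 0.849 (4940 genes). At or below it, the median was 0.635 (4498 genes). TATAAA in the same 45 to 11 base window was found in 1.60% of the former and 5.71% of the latter, against 3.72% of all protein-coding promoters of the table outside chromosome 8; anywhere in the 250 bases on either strand the shares were 4.88%, 11.2% and 9.23%. Within the brighter genes the window share was not lowest at the top: it was 0.517% in the sixth class of 10 by level and 3.36% in the brightest. Of 48 ribosomal protein genes with an entry, 32 (66.7%) start with C followed by 4 bases that are each C or T, the pyrimidine start known from mRNAs of the translation machinery, against 4.60% of all those promoters. These are descriptions of letters near annotated starts, and no test was made of them.

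Among lineage genes, basal keratins and regulators were bright while most luminal surface and secretory genes were not. Of 14 basal genes measured, 12 lay above the olfactory receptor level, 7 in the top 10% of probe sets. Of 24 luminal genes 9 did, and of 14 milk and secretory genes 2 did, against 62.0% of all genes. The 6 markers that define these epithelial cells, KRT5, KRT14, KRT18, CDH1, ITGB4 and LAMB3, all had levels above it. KRT17, TP63 and COL17A1 were not analysed here, since no probe set carries their symbol alone.

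KRT5 and KRT14, the paired keratins of basal cells, lay in the top 1%. KRT5 had levels of 12.10, 12.33, 12.60 and 12.78 on vehicle 1 to 4, and KRT14 had 12.01, 12.92, 12.24 and 11.17. All 4 arrays were high for both, and vehicle 4 was the highest for KRT5 and the lowest for KRT14. VIM, an intermediate filament protein found in basal and mesenchymal cells, was at 12.06 ± 0.13, CAV1, the coat protein of caveolae, at 11.63 ± 0.08, and SNAI2, a basal transcription factor, at 11.32 ± 0.20. NGFR and KRT15, other basal markers, were the list's members below the level, at 1.79 ± 1.11 and 1.45 ± 1.17. THY1, a surface glycoprotein, lay just above it at 4.11 ± 0.22.

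The simple keratins KRT8 and KRT18, which pair in luminal cells, were clearly above the level. KRT18 had levels of 7.86, 8.05, 7.29 and 7.81, brighter than 83.7% of probe sets, and KRT8 had 7.17, 7.60, 7.22 and 7.54, brighter than 79.7%. KRT19, another simple keratin, was listed below an intensity of 1 on all 4 arrays by its 1 probe set, and KRT7 was at 3.62 ± 0.54. Some keratins of both layers were thus above the level, the basal pair far brighter than KRT8 and KRT18. In these bulk samples fewer cells of a type and less RNA per cell cannot be told apart.

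Luminal transcription factors were divided. TFAP2A, an AP-2 factor, had levels of 9.33, 9.33, 9.31 and 9.34, the smallest SD (0.0131) of any gene above the level on every array. Its SD was 0.205 on the AGA and 0.147 on the Aza arrays, so that small spread was not shared by the other groups. GATA3, the main luminal regulator, had 9.67, 9.48, 9.32 and 8.76. FOXA1, the partner of the estrogen receptor, was at 2.03 ± 1.10 and ELF5, the alveolar regulator, at 1.55 ± 1.74, both below the level. XBP1, a secretory stress factor, was at 7.41 ± 0.23. At the cell surface CDH1, the epithelial cadherin, had levels of 7.76, 8.76, 8.25 and 7.12. The other CDH1 probe set was below the level at 3.55 ± 0.20. MUC1, the apical mucin, had 3.68, 4.04, 4.13 and 3.56, on both sides of the level, and EPCAM was at 0.79 ± 0.91.

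Milk genes were dim, with PIGR, the antibody transporter, the brightest of them at 4.84 ± 0.58. The caseins CSN2, CSN3 and CSN1S1 were at 2.25 ± 0.72, 0.95 ± 0.87 and 0.68 ± 0.88 and LALBA, the lactose synthase subunit, at 1.22 ± 0.87. SCGB2A1, a mammaglobin, was below an intensity of 1 on all 4 arrays. Of 12 contractile genes of myoepithelial cells 6 lay above the level, with CALD1, a regulator of actomyosin, at 10.62 ± 0.18 and ACTA2, smooth muscle actin, at 6.09 ± 0.53. The smooth muscle myosin MYH11 and calponin CNN1 were at 2.69 ± 0.90 and 1.11 ± 1.62, below it.

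The squamous list held 8 of 28 genes (28.6%, against 62.0% of all genes) above the level, 5 of them in the top 10%. KRT10, a keratin of suprabasal skin cells, had levels of 12.49, 12.31, 12.47 and 13.10. SFN, the 14-3-3 protein of stratified epithelia, had 10.80, 11.27, 10.84 and 10.44 by a probe set with an identifier suffix. Another suffixed SFN probe set was at 10.76. The one without a suffix was at 6.75, outside the top 10%, so the SFN probe sets disagree. S100A2, CSTA and SERPINB5 were at 11.39 ± 0.93, 10.59 ± 0.60 and 10.38 ± 0.56. The late differentiation genes IVL, LORICRIN and FLG were below the level at 2.34 ± 1.30, 1.40 ± 1.61 and 1.15 ± 1.16. S100A8, an alarmin, had levels of 4.42, 4.32, 4.30 and 7.32, so its mean of 5.09 rests on vehicle 4 and was 4.35 without it.

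**Figure D1:**
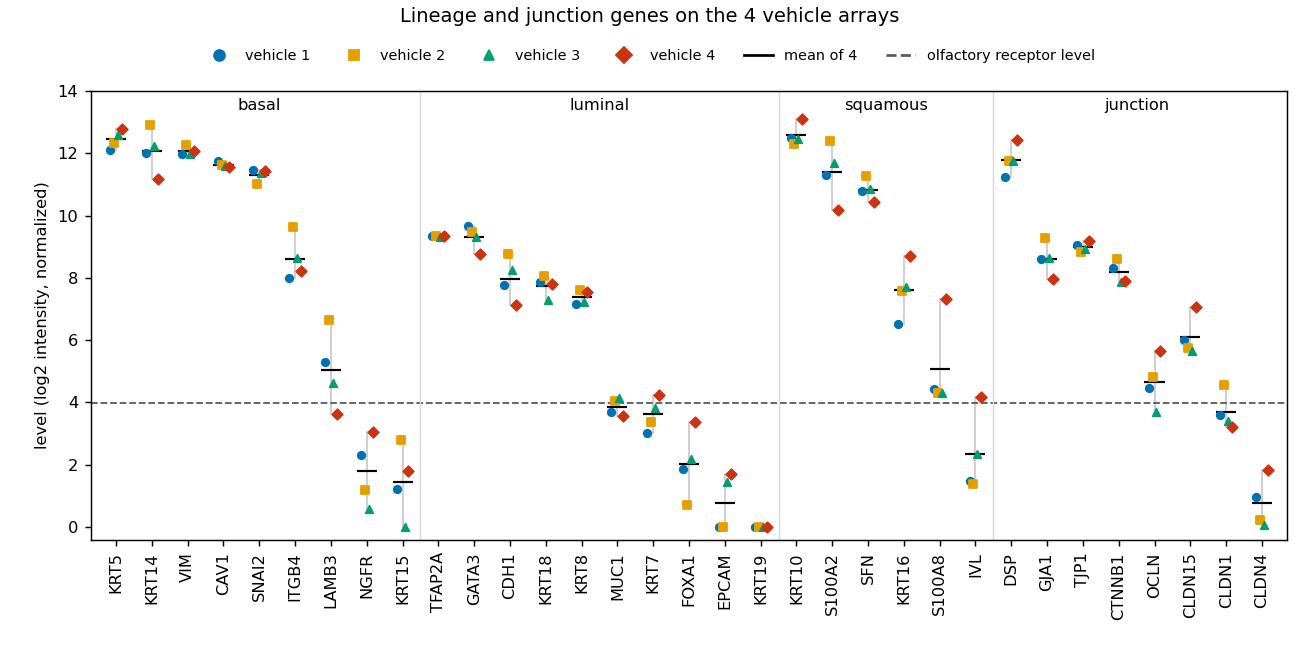
Level (log2 intensity after normalization, vertical axis) of basal, luminal, squamous and junction genes, with 1 symbol for each of the 4 vehicle arrays, a bar at their mean and a dashed line at the olfactory receptor level of 3.99. KRT5 and KRT14 lie above 11 on all 4 arrays, KRT19 at 0 on all 4, and the S100A8 symbol of vehicle 4, at 7.32, stands above the other arrays.

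Markers of other cell types were mostly dim. Of 50 such genes 12 lay above the level, 6 of them on every array, against 3 of 27 tissue-restricted genes (TG of the thyroid at 7.23, SFTPB and SFTPC of the lung at 5.80 and 4.50), a measure of how often genes foreign to the breast exceed it. None of 12 leukocyte genes did; the highest was ITGAM, an integrin chain, at 3.51 ± 0.77. Of 9 endothelial genes only KDR, the VEGF receptor, lay above it, with levels of 7.16, 7.87, 8.23 and 7.49, while ROBO4 was just below it at 3.97 ± 0.22, and PECAM1 and VWF were at 2.25 ± 0.67 and 0.89 ± 0.83. The count was 2 without vehicle 3, and 2 with the 90th percentile of the olfactory receptor probe sets as the level. Of 12 fibroblast genes 3 lay above the level. TWIST1, a mesenchymal transcription factor, had 9.03, 9.11, 8.91 and 9.66, and COL1A1, the collagen I chain, had 6.99, 7.73, 6.79 and 7.48, while its other 3 probe sets were at 3.05 to 3.77. DCN, the proteoglycan decorin, was at 4.63 ± 0.65, with 2 of its 4 probe sets above the level. COL1A2, the partner chain of COL1A1, was at 3.65 ± 0.32, PDGFRA at 1.48 ± 0.97 and LUM at 0.38 ± 0.45, all below the level. Of 10 melanocyte and neural genes 5 lay above it, with TUBB3, a neuronal tubulin, highest at 7.98 ± 0.35. Of 7 adipocyte genes 3 did: the lipid droplet proteins CIDEC and PLIN1 were at 6.22 ± 0.86 and 4.83 ± 0.82 and LIPE, hormone-sensitive lipase, at 5.32 ± 0.37. The hormones ADIPOQ and LEP were below it at 2.60 ± 1.21 and 1.13 ± 1.58. The part of other cells in these values was not tested.

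Junction genes differed by class, with most desmosome genes above the level and most claudins below it. Of 87 genes 48 (55.2%) lay above the level, against 62.0% of all genes. For desmosomes, the spot junctions that anchor keratin, the count was 12 of 15. DSP, the plaque protein that binds keratin, had levels of 11.24, 11.76, 11.76 and 12.43, in the top 1%. PERP, a desmosomal membrane protein, was at 10.31 ± 0.34, the cadherins DSG2, DSC3 and DSG3 at 9.80 ± 0.34, 9.30 ± 0.31 and 8.83 ± 0.54, and the plaque proteins PPL and PKP1 at 9.85 ± 0.16 and 9.01 ± 0.38. DSC2, a further cadherin, lay just above the level at 4.10 ± 0.68. DSG1 and DSC1, the cadherins of upper epidermis, and EVPL, envoplakin, were below the level at 1.23 ± 1.10, 0.94 ± 1.85 and 1.89 ± 1.14.

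Tight junctions seal the apical border, and 7 of their 22 genes (31.8%) lay above the level. TJP1, the scaffold ZO-1, had levels of 9.04, 8.81, 8.94 and 9.18. OCLN, the membrane protein occludin, was at 4.66 ± 0.81. Of 14 claudins, the strands of the seal, only CLDN15 was above the level, with 6.005, 5.74, 5.65 and 7.07. CLDN1 was at 3.70 ± 0.60, above the level on vehicle 2 alone, and CLDN3, CLDN7 and CLDN4 were at 2.84 ± 1.18, 2.28 ± 1.56 and 0.77 ± 0.82.

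Adherens junctions join actin between cells, and 10 of 17 of their genes (58.8%, close to the 62.0% of all genes) lay above the level. CTNNA1, the catenin that links to actin, was at 9.64 ± 0.05, VCL, the tension sensor vinculin, at 8.65 ± 0.32, and CTNNB1, beta-catenin, had levels of 8.32, 8.59, 7.88 and 7.92. CDH3, the basal cadherin, was at 7.25 ± 0.51, and CDH2, the neural cadherin, was below the level at 3.65 ± 0.36. Among 9 gap junction genes GJA1, connexin 43, had 8.60, 9.27, 8.63 and 7.96, in the top 10%. GJB1 and GJA5, connexins 32 and 40, were below the level at 2.79 ± 1.38 and 0.90 ± 0.48.

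Of 24 polarity genes 15 (62.5%) were above the level, close to the 62.0% of all genes. RAC1 and CDC42, the small GTPases that direct the polarity complexes, were at 9.82 ± 0.13 and 9.76 ± 0.26, the kinases PRKCI and PRKCZ at 9.21 ± 0.31 and 7.57 ± 0.20, and their partner PARD3 at 7.92 ± 0.34. SCRIB and DLG1, scaffolds of the basolateral domain, were at 7.98 ± 0.37 and 8.71 ± 0.24. RDX, EZR and MSN, which link the membrane to actin, were at 10.00 ± 0.32, 8.24 ± 0.97 and 9.06 ± 0.41. PARD6A and PARD6B, adaptors of the same complex, were below the level at 3.68 ± 0.92 and 1.70 ± 1.97, as were PODXL at 1.80 ± 1.14, MUC4 at 1.09 ± 1.11 and MUC16 at 0.32 ± 0.38, all of the apical surface.

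Laminin and collagen IV chains were bright in part and most stromal matrix genes were dim. Of 24 basement membrane genes, laminins included, 15 lay above the level, close to the 62.0% of all genes. Of 21 interstitial genes 7 (33.3%) did. LAMB1, a chain of the classical laminins, had levels of 11.87, 12.16, 12.08 and 12.55, and LAMC1, its partner, had 9.63, 9.85, 9.47 and 9.92. LAMB3, a chain of laminin-332, the ligand of hemidesmosomes, had 5.31, 6.64, 4.64 and 3.62. It was brighter than 52.7% of probe sets, dipped below the level on vehicle 4, and was at 5.53 ± 1.02 without that array. LAMA1 and LAMA2 were below the level at 1.92 ± 1.53 and 3.02 ± 1.25. Of the collagen IV chains COL4A5 and COL4A6 were at 10.28 ± 0.24 and 9.57 ± 0.36, COL4A1 and COL4A2 at 6.74 ± 0.43 and 7.18 ± 0.76, and COL4A3 and COL4A4 below the level at 3.27 ± 1.64 and 1.30 ± 1.55. COL7A1, the anchoring fibril collagen, was at 8.99 ± 0.54 and NID2, a nidogen, at 0.55 ± 0.92.

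Among integrins and hemidesmosome genes 12 of 23 (52.2%, against 62.0% of all genes) lay above the level, all 12 on every array. ITGB1, the common beta chain, had levels of 11.57, 11.48, 11.59 and 11.71, but only 1 of its 5 probe sets was above the level. ITGB4, the hemidesmosome chain, had 8.00, 9.62, 8.63 and 8.21, and its partner ITGA6 was at 7.06 ± 0.72. DST and PLEC, which tie hemidesmosomes to keratin, were at 10.59 ± 0.69 and 8.39 ± 0.43. The leukocyte chains ITGB2 and ITGA4 were below the level at 0.93 ± 0.67 and 0.58 ± 0.74.

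In the stroma list FN1, fibronectin, was at 8.46 ± 0.46 and COL6A1 at 6.28 ± 0.23, while COL3A1, TNC, COL6A3 and LUM were at or below 2.38. Of 24 protease and inhibitor genes 14 (58.3%) lay above the level, close to the 62.0% of all genes. The inhibitors TIMP3 and TIMP1 were at 9.30 ± 0.20 and 8.95 ± 0.24, the lysosomal protease CTSB at 9.54 ± 0.37, the epithelial metalloprotease MMP7 at 8.21 ± 0.33 and the membrane-bound MMP14 at 7.002 ± 0.35. The collagenases MMP1 and MMP13 were at 0.36 ± 0.71 and 0.81 ± 1.18, and TIMP2 was at 0.79 ± 0.94.

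**Figure D2:**
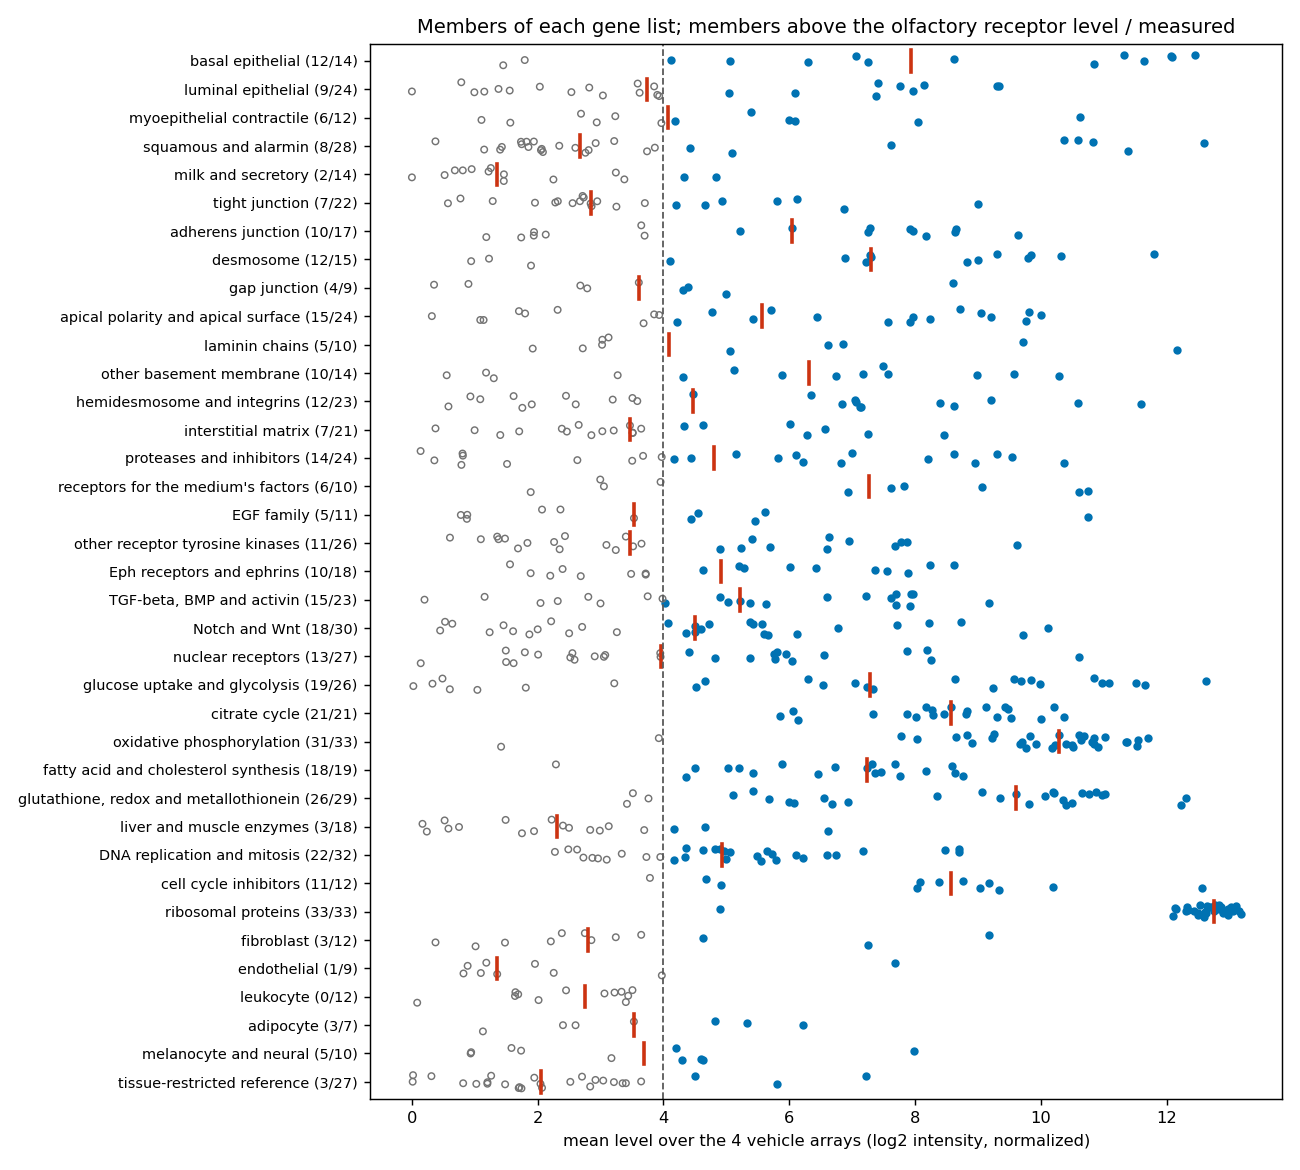
Mean level over the 4 vehicle arrays (log2 intensity, horizontal axis) of every measured member of 37 gene lists, 1 row per list, with filled points above and open points not above the olfactory receptor level (dashed line) and a red bar at the list's median. Ribosomal proteins sit near 12.8 and oxidative phosphorylation near 10.3, while leukocyte, endothelial and milk genes lie mostly to the left of the line.

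Receptors for the factors in the medium were bright or dim by factor. Of 10 genes 6 (60.0%, close to the 62.0% of all genes) lay above the level, all 6 on every array. EGFR, the receptor for the EGF that had been left out for 48 hours, had levels of 10.41, 10.84, 10.53 and 11.23, brighter than 98.1% of probe sets. NR3C1, the glucocorticoid receptor that hydrocortisone binds, had 10.55, 10.55, 10.45 and 10.89, and TFRC, the transferrin receptor, had 9.02, 9.17, 9.08 and 8.98. INSR and IGF1R, which bind insulin, were at 6.94 ± 0.26 and 7.82 ± 0.49. The steroid receptor for estradiol, ESR1, had 4.43, 4.16, 3.48 and 3.74, on both sides of the level, and 0 of its 9 probe sets had a mean above it. ESR2, the second estrogen receptor, and PRLR, the prolactin receptor, were at 3.05 ± 0.52 and 1.89 ± 1.74. PGR, the progesterone receptor, was at 0.14 ± 0.18 and at or below 0.37 on every array.

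Within the EGF family ERBB2 was at 5.61 ± 0.33, and ERBB3 and ERBB4 were below the level at 2.36 ± 1.24 and 2.07 ± 0.65. The ligand TGFA was at 5.45 ± 0.30, while EREG and EGF itself were at 0.78 ± 0.90 and 0.87 ± 1.09. Of 26 other receptor tyrosine kinases 11 (42.3%, against 62.0% of all genes) lay above the level. MET, the receptor for hepatocyte growth factor, led them with 9.54, 9.67, 9.80 and 9.47. AXL and MERTK, which bind GAS6, were at 7.88 ± 0.37 and 7.78 ± 0.81, and GAS6 itself was at 8.03 ± 0.34. KIT, a progenitor receptor, was at 1.38 ± 0.30.

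In the Notch and Wnt list 18 of 30 genes (60.0%) lay above the level, close to the 62.0% of all genes: the ligand JAG1 had levels of 10.52, 10.07, 9.69 and 10.21, the receptors NOTCH2 and NOTCH1 were at 9.71 ± 0.26 and 8.73 ± 0.16, and FZD6, a Wnt receptor, was at 8.22 ± 0.26. Of 10 Wnt ligands WNT5B and WNT6 were above it, at 4.51 ± 1.53 and 4.50 ± 0.51; WNT5B was at 5.28 without vehicle 4. In the TGF-beta list 15 of 23 (65.2%) were above, also close to that share. The coreceptor TGFBR3 was at 9.18 ± 0.64, TGFBR2 at 7.70 ± 0.14 and the mediators SMAD4 and SMAD2 at 7.92 ± 0.22 and 7.61 ± 0.31. TGFBR1, the partner of TGFBR2, was at 2.32 ± 1.46, and the ligand BMP4 at 0.20 ± 0.10. Of 18 Eph receptors and ephrins 10 (55.6%) were above, with EFNB2 and EFNA1 at 8.62 ± 0.45 and 8.23 ± 0.15. Of 27 nuclear receptors 13 (48.1%) were above, with RXRA and VDR, the retinoid and vitamin D receptors, at 8.26 ± 0.09 and 8.19 ± 0.31. The adipocyte regulator PPARG was at 2.55 ± 2.03.

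Most metabolic genes lay above the level, and those of the citrate cycle and oxidative phosphorylation did so almost throughout. The metabolic genes also take in glycolysis, lipid synthesis, redox genes and liver and muscle enzymes. Of 145 metabolic genes 117 (80.7%, against 62.0% of all genes) lay above the level and 72 were in the top 10%. All 21 citrate cycle genes were above it on every array, with the malate dehydrogenases MDH1 and MDH2 at 10.37 ± 0.24 and 10.21 ± 0.18 and citrate synthase, CS, at 10.01 ± 0.29. Of 33 oxidative phosphorylation genes 31 were above it, 29 in the top 10%, with COX4I1 of complex IV at 11.70 ± 0.13 and ATP5F1A of the ATP synthase at 11.55 ± 0.20. The exceptions were COX6A2 and COX7A1, the muscle forms of complex IV subunits, at 3.93 ± 0.57 and 1.42 ± 1.46.

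In glycolysis 19 of 26 genes were above the level. GAPDH had levels of 12.68, 12.76, 12.61 and 12.46. The widely used forms LDHB, LDHA, ALDOA, ENO1, PGK1 and HK1 were at 11.66 ± 0.15, 11.52 ± 0.41, 11.09 ± 0.14, 10.98 ± 0.40, 10.85 ± 0.18 and 9.69 ± 0.34. The liver, muscle, neural and blood cell forms PKLR, PGAM2, ENO2 and HK3 were at 1.81 ± 1.47, 1.04 ± 1.01, 0.33 ± 0.65 and 0.49 ± 0.40. Other tissue forms were above it: PFKM, the muscle phosphofructokinase, was at 9.58 ± 0.16, in the top 10%, and ALDOC, the brain aldolase, at 6.54 ± 0.22. Among glucose transporters SLC2A1 was at 7.05 ± 0.53, and the muscle and liver forms SLC2A4 and SLC2A2 were at 0.60 ± 0.84 and 0.02 ± 0.03. Of 18 liver and muscle enzymes 3 were above: CPS1, of the urea cycle, at 6.62 ± 0.74, ENO3 at 4.67 ± 0.20 and CYP3A4 at 4.17 ± 1.49.

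Redox genes were among the brightest of the metabolic lists, with 26 of 29 above the level and 17 in the top 10%. The metallothioneins MT2A and MT1X, which bind zinc and copper, were at 12.31 ± 0.21 and 12.22 ± 0.16, and MT3, the brain form, was below the level at 3.42 ± 0.70. GSTP1, which conjugates glutathione, was at 11.02 ± 0.26, the peroxiredoxin PRDX2 at 10.97 ± 0.16 and catalase, CAT, at 10.21 ± 0.68. The selenoproteins GPX4, GPX1 and TXNRD1, whose cofactor the medium supplies, were at 10.65 ± 0.21, 10.49 ± 0.40 and 9.61 ± 0.17. Of 19 lipid synthesis genes 18 were above, with the sterol enzymes LSS and SQLE at 8.76 ± 0.20 and 8.64 ± 0.22 and fatty acid synthase, FASN, at 7.36 ± 0.50.

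Most cell cycle inhibitor genes were above the level. Of 12 inhibitors 11 (91.7%, against 62.0% of all genes) were above it and 6 in the top 10%. Vehicle 4 was the highest array in 8 of the 11, and their median SD of 0.402 was 0.184 without vehicle 4. All 12 cultures were taken after 48 hours without EGF, so an effect of its removal was not tested. BTG1, an antiproliferative factor, had levels of 12.45, 12.60, 12.64 and 12.60, and CDKN1C, the inhibitor p57, had 9.91, 9.79, 10.19 and 10.89. CDKN1B and CDKN1A, p27 and p21, were at 9.33 ± 0.45 and 8.76 ± 0.17. Of 32 replication and mitosis genes 22 (68.8%) were above, against 62.0% of all genes, and 3 were in the top 10%. PCNA, the polymerase clamp, was at 8.70 ± 0.42 and TYMS, thymidylate synthase, at 8.48 ± 0.46, KIF11, a spindle motor, at 6.10 ± 0.23, AURKA, a spindle kinase, at 5.79 ± 0.25, and CCNB1 and TOP2A at 5.73 ± 0.39 and 4.97 ± 0.70. MKI67, the proliferation antigen, had 2.73, 3.32, 4.33 and 4.54, above the level on vehicle 3 and 4 alone, and PLK1, BUB1 and RRM2 were at 2.87 ± 0.41, 2.49 ± 1.05 and 2.27 ± 1.47.

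The spread between cultures was smaller in bright than in moderately dim probe sets. The median SD of the 10 equal classes of probe sets by level was 0.69 in the dimmest, which holds values set to the floor, 1.24 in the second, 1.23 in the third, 0.484 in the fifth and 0.218 in the brightest, and without vehicle 4 the brightest class had 0.154. Over all probe sets above the level the median SD was 0.302, and 0.229 without vehicle 4. By list, members above the level had a median SD of 0.184 for oxidative phosphorylation, 0.224 for glycolysis and 0.235 for the citrate cycle. It was 0.403 for the basal list, 0.579 for the squamous list and 0.540 for tight junctions, which became 0.216, 0.280 and 0.184 without vehicle 4. Since SD falls with level, each SD was also divided by the median SD of its class by level. The median ratio was 0.845 for oxidative phosphorylation, 0.836 for glycolysis and 0.996 for the citrate cycle, against 0.976 for all genes. It was 1.62 for the basal list, 2.66 for the squamous list and 1.68 for tight junctions. These ratios include vehicle 4. Without that array the median SD over all genes above the level was 0.209, against 0.216, 0.280 and 0.184 for those lists. The larger ratios of the basal and tight junction lists thus rest on vehicle 4.

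**Figure D3:**
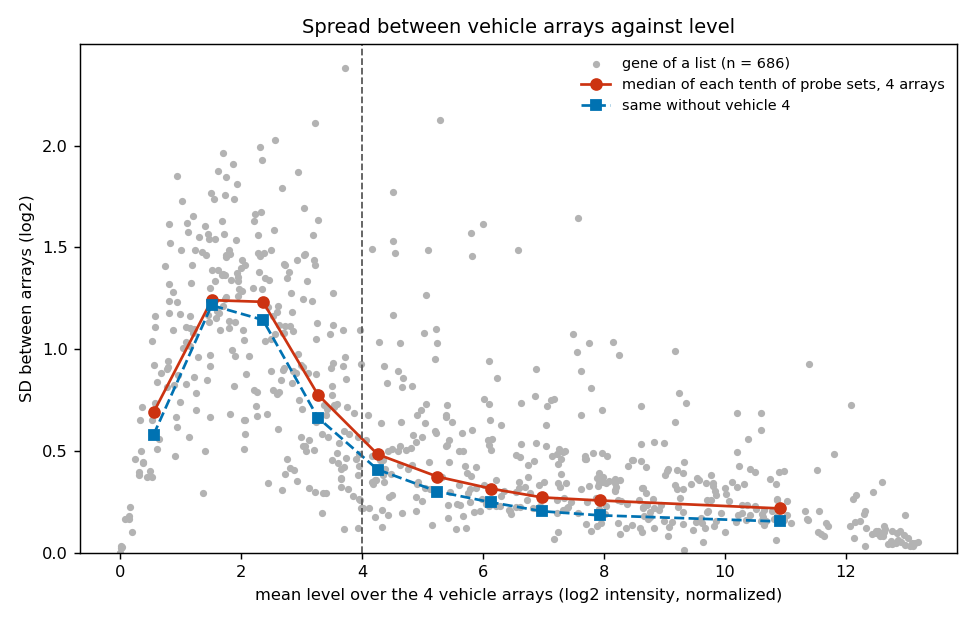
SD between vehicle arrays (log2, vertical axis) against mean level (log2 intensity, horizontal axis) for the 686 measured list genes (grey) and the median SD of 10 equal classes of all probe sets with 4 arrays (red) and without vehicle 4 (blue). The medians fall from 1.24 in the second class to 0.218 in the brightest, and the line without vehicle 4 lies lower in every class.

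Among genes above the level on all 4 arrays, vehicle 4 was the lowest array in 8 and the highest in 4 of the 12 with the largest SD. BEX1, a neurotrophin receptor adaptor, had levels of 6.78, 6.85, 7.16 and 11.04, an SD of 2.06 that became 0.20 without vehicle 4. Its SD was as large in the treated groups, 2.07 for AGA and 2.32 for Aza. The standard error of its AGA difference was 1.40, and 0.131 with the replicate number as a block and an intensity trend. DKK1, a secreted Wnt inhibitor, had 9.497, 8.34, 8.12 and 5.46, and NID1, a linker of laminin and collagen IV, had 7.27, 6.96, 6.13 and 9.93. AKR1C1, a steroid and aldehyde reductase, had 9.67, 8.81, 8.27 and 6.15, and its relative AKR1C2 had 9.70, 8.22, 8.25 and 6.04; they are near-identical copies whose probes may share signal. Without vehicle 4 the level was 6.93 for BEX1, 8.65 for DKK1, 6.79 for NID1 and 8.92 for AKR1C1. The SD was then 0.74 for DKK1, 0.59 for NID1 and 0.71 for AKR1C1, each still above its class median of 0.257 over 4 arrays. GLIPR1 had 8.75, 7.68, 5.81 and 5.29, with vehicle 4 close to vehicle 3, and its SD of 1.61 was 1.49 without vehicle 4. The others of the 12 were DUSP5, ATF3, FBLN5, OMD, FBN1 and S100A8. At the other end, beside TFAP2A, stood BECN1, of autophagy, at 8.24 ± 0.02 and EEF2, the elongation factor, at 12.20 ± 0.02. EDRF1, AMMECR1, ZNF532, CFDP1, ARHGEF18, MRPL57, ZNF419, TPT1 and HUWE1 completed the 12 smallest SDs, which ran from 0.0131 to 0.0288. These are the extremes of 6818 genes, each SD resting on 4 values. For the same 12 genes the SDs ran from 0.010 (TPT1) to 0.304 (ZNF532) on the AGA arrays. On the Aza arrays they ran from 0.040 (TPT1) to 0.234 (CFDP1).

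**Figure D4:**
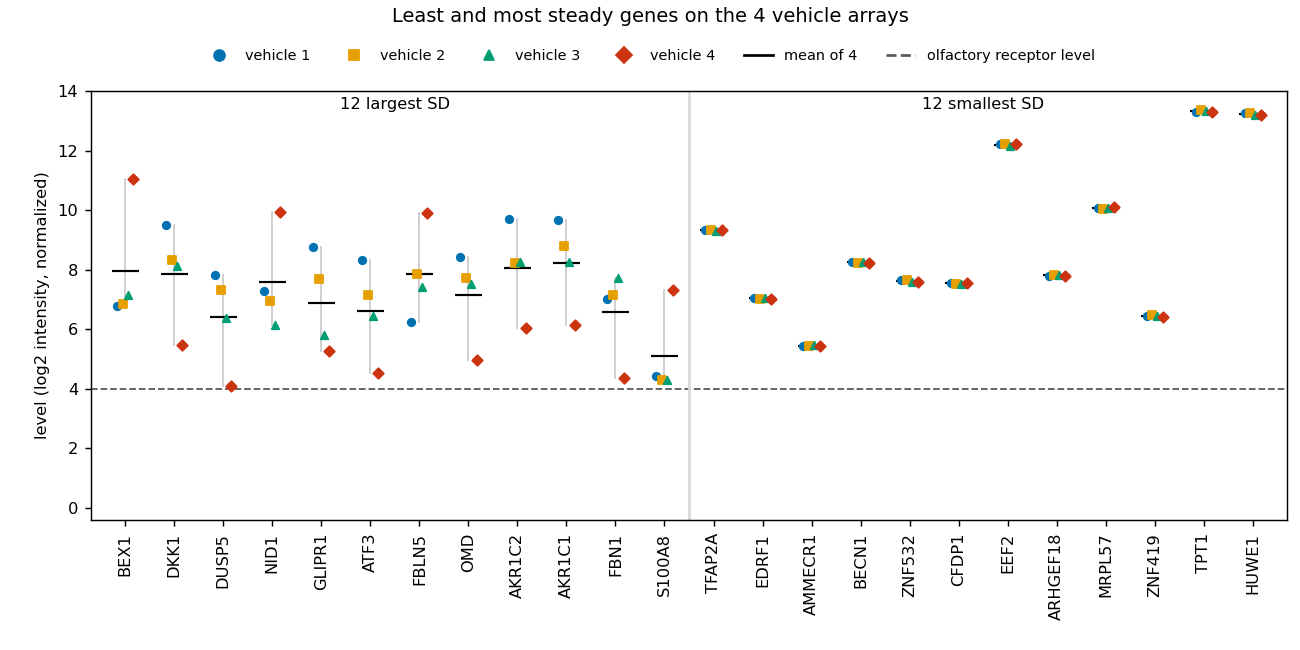
Level (log2 intensity, vertical axis) on each of the 4 vehicle arrays for the 12 genes with the largest and the 12 with the smallest SD among genes above the olfactory receptor level (dashed line) on every array, with a bar at the mean. In BEX1, NID1, FBLN5 and S100A8 vehicle 4 is the highest array, and in the other 8 of the first 12 it is the lowest.

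Against the treated arrays, 0 of the 686 list genes differed from vehicle at an adjusted p under 0.05 in limma, for AGA and for Aza alike. The fit over all 22215 probe sets called 2 in each comparison (0.009% and 0.009%). At an unadjusted p under 0.05 there were 41 list genes (5.98%) for AGA, 23 of them higher, against 4.51% of all genes. For Aza there were 29 (4.23%), 18 of them higher, against 3.07% of all genes. With the replicate number as a block the counts of list genes were 0 and 0, and those of all probe sets 2 and 0. Adding an intensity trend to the blocked fit called 17 list genes for AGA (2.48%), against 89 of 11963 genes (0.744%) and 156 of all probe sets (0.702%). For Aza it called 0, against 1 of all genes (0.00836%) and 1 of all probe sets (0.0045%). The lists were chosen with earlier results of these data known, so a larger share among list genes is not a result about them. Among the 17, MT1G, a metallothionein, was higher in AGA by 1.03 on the log2 scale and KRT16, a stress keratin, by 1.497; the difference was -1.20 for THBS1, thrombospondin, and -0.84 for EPHB6, an Eph receptor. Of the 6 epithelial markers none was called in any of these fits.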

How the data were processed

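Per the submitters' processing notes, the authors made the deposited values, linear intensity per probe set, with GCOS, the Affymetrix operating software; its version and algorithm are not given in the sources used here. Per the labels' protocols 2.25 µg of total RNA was labelled per array.

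From these deposited intensities log2 was computed here after values under 1 were set to 1, and the 12 arrays were quantile normalized with limma 3.58.1 in R 4.3.3. Of 22277 probe sets 62 are controls and were not used. Of the other 22215, 19064 carry 1 gene symbol in the platform annotation, 1043 several and 2108 none, and only the first kind was named; 19052 matched the GRCh38.p14 gene table, which changed 0 symbols. A gene's brightest probe set stands for it. Of 780 genes in 37 lists 686 were measured. The members and lists were chosen with earlier results of these data known.

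Named genes are the 6 markers, the 25 brightest, list members, and the 12 largest and 12 smallest SDs. Levels and spread are descriptions without a test. The AGA and Aza contrasts were fitted with limma (eBayes after lmFit, two-sided tests) on the 12 arrays together, with Benjamini-Hochberg adjustment over all probe sets; the p-values measure the spread between these cultures. The script was tested on simulated data. Replicate numbers were taken to pair the arrays. Deviations from the group means of same-numbered arrays correlated above 0.1 in 12 of 12 pairs (0.291 to 0.709) over 12680 probe sets. Those probe sets had a mean over all 12 arrays above the olfactory receptor level. Over all probe sets 6 of 12 pairs did. The number of arrays limits the precision. Promoter sequences are from RefSeq, and coordinates are on GRCh38.p14.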

Additional observations from a re-analysis of the deposited data

Results flagged for a closer look

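Each of the 253 genes named with a level was checked for an array far from the other 3 by Dixon's ratio, and 15 passed its 95% critical value; chance alone passes about 1 in 20. The outlying array was vehicle 4 in 8 of them. BEX1 was at 11.04 on vehicle 4, with the next array at 7.16, and S100A8 was at 7.32, with the next at 4.42. ENO1 was highest on vehicle 4 at 11.58 and HK1 lowest at 9.18, both glycolytic enzymes. ZNF419 was lowest on vehicle 4 at 6.41, with the next array at 6.46. WNT5B was at 2.21 on vehicle 4, below the olfactory receptor level, with the next array at 5.19, and DSC1 was at 3.72. DCN was at 3.67 on vehicle 4, also below that level, with the next array at 4.94. AURKA was lowest on vehicle 2 at 5.41, with the next array at 5.89.

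The means of DSC1 and of the other 6 lie below the olfactory receptor level. On vehicle 2 MMP1 was at 1.43, ENO2 at 1.31, TGFBR1 at 0.15 and ITGAM at 2.36. On vehicle 1 CNN1 was at 3.53, and on vehicle 3 NID2 was at 1.92.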

How the results depend on the processing

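The number of arrays, 4 per group, and the lack of detection calls limit every statement about dim genes. Of 329 list genes with several probe sets, 109 had probe sets on both sides of the olfactory receptor level. The counts above that level stayed within 1.5 times their value for all probe sets and each theme under each normalization, floor, percentile and left-out array tried, the brightest probe set of each olfactory receptor gene (chosen after seeing the data) included. The exceptions came from other rules for the arrays or the probe set. With every array required above the level, or with the median probe set of each gene, other cell types had 6 and 6 genes; with the median probe set the tissue-restricted reference had 1. Only probe sets without an identifier suffix left fewer genes measured. There matrix had 26 of 71 genes above, receptors 49 of 107, metabolism 72 of 99, cell cycle 21 of 34, translation 10 of 12, other cell types 7 of 35 and the tissue-restricted reference 1 of 20, against 54.4% of all genes. Of 2461 alternative levels of single genes, 216 moved by more than 1 SD, 96 of them with the median probe set. The median SD of 0.302 became 0.364 without normalization. It ran from 0.229 to 0.303 with 1 array left out, lowest without vehicle 4.

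AGA minus vehicle, 2 calls, gave 2 with the replicate block and 156 with the block and an intensity trend. Among probe sets whose mean over all 12 arrays was above the olfactory receptor level it gave 0 (603 at an unadjusted p under 0.05, limma). With values under 8 set to 8 it gave 0 (1048). Without 1 array it gave 1 to 5, with 4 calls without vehicle 1, 1 without vehicle 2, 3 or 4 or AGA 2, and 5 without AGA 4. Aza minus vehicle, also 2 calls, gave 0 with the replicate block (1198 unadjusted) and 1 with block and trend. It gave 0 among the same probe sets above the olfactory receptor level (242), with median centring (749) and with values under 8 set to 8 (551). Without 1 array it gave 0 to 7: 1 without vehicle 1, 0 without vehicle 2, 3 or 4 or Aza 2 or 3, and 7 without Aza 1. The cause was not tested.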
